A study of Mus musculus with 6 samples.

Results

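Genes of the islet mesenchyme and of the extracellular matrix were followed in whole islets of *Akita* and wild-type (WT) mice. The set holds 38 genes, chosen by symbol as known markers of pericytes, smooth muscle and fibroblasts or as collagen, laminin and other matrix genes, out of 40914 genes with counts in the deposited table. *Akita* mice were heterozygous for *Ins2*, with one WT allele and one allele carrying C96Y, a misfolding proinsulin variant, and WT mice carried no mutant allele; both were on a C57BL/6J background and 19 to 21 days old. There were 3 *Akita* libraries (AK4, AK5 and AK6) and 3 WT libraries (WT1, WT2 and WT3), each from the pooled islets of 3 mice, so that p-values measure the spread between pools. Hand-picked islets of both genotypes had been released with collagenase and kept overnight in culture before RNA was taken.

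An islet is a cluster of endocrine cells threaded by capillaries. Pericytes are contractile cells that wrap these capillaries, while fibroblasts and stellate cells lie mostly in the capsule and in the surrounding pancreas. Fibrillar collagens and collagen VI form the interstitial matrix of the capsule, whereas collagen IV, laminins, nidogens and perlecan form the basement membrane. In mouse islets the basement membrane that β-cells touch is known to be laid down largely by endothelial cells.

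The libraries held 22069554 to 27043169 counts, and 15407 genes passed the filter on low counts. Levels are CPM (counts scaled to library size by TMM factors), fold changes are log2 *Akita* over WT from limma-voom, and calls were made where the p adjusted by Benjamini–Hochberg across the whole table was under 0.05. Over all genes 249 were called (1.62%), 117 of them higher (0.759%) and 132 lower (0.857%) in *Akita*. *Ins1* and *Ins2* together took 11.8% to 12.6% of counts in *Akita* pools and 17.6% to 19.2% in WT pools. WT1 and AK4 were each set against the other pools of their genotype, and the other pools were not counted in this way. WT1 was at least 3-fold above each of the other WT pools in 182 genes (1.18%), and AK4 at least 3-fold above each of the other *Akita* pools in 415 genes (2.69%). Among the 37 matrix and mesenchymal genes tested, WT1 stood apart in this way in 10 (27%). These were all 5 fibrillar collagen genes and 5 of 10 fibroblast genes. AK4 did so in 1 (2.7%), *Pdgfra*, a share close to its share over all genes. Without a threshold, each of the pools WT1 and AK4 was the highest of its genotype in 33 of the 37 genes. Over all genes these shares were 32.9% for WT1 and 37.1% for AK4.

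None of the 37 genes was called between *Akita* and WT, the lowest adjusted p being 0.238 for *Thy1*. *Mfap4*, the remaining gene, did not pass the filter. Fold changes of 26 of the 37 were above 0 and of 11 below 0. Their median was 0.21, against −0.00 over all genes tested. At an unadjusted p under 0.05, 2 genes were higher (*Rgs5* and *Thy1*), where 9.81% of all genes were higher, and 0 were lower, where 8.88% of all genes were. In 0 genes did every *Akita* pool lie above every WT pool (13.2% of all genes), and in 1, *Nid2*, every *Akita* pool lay below (12.2% of all genes).

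**Figure D1:**
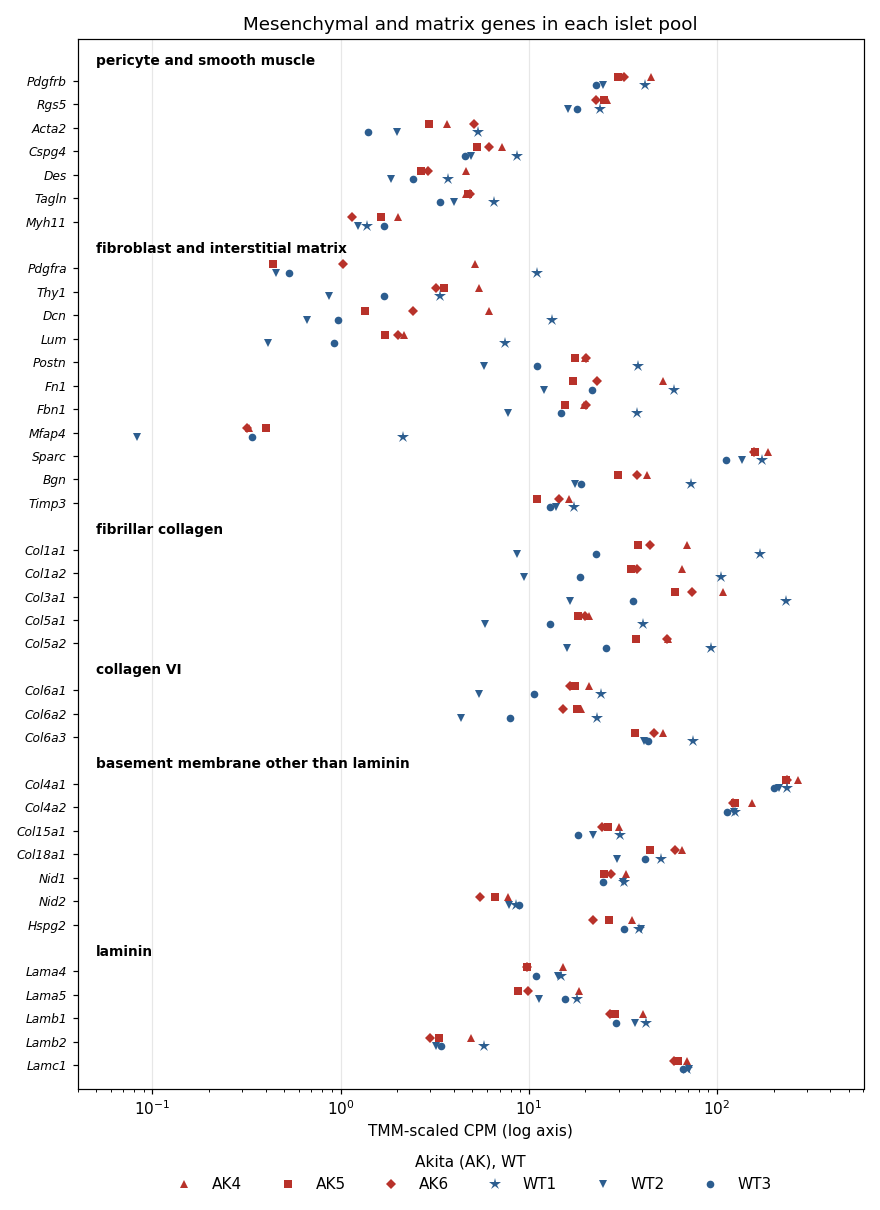
TMM-scaled CPM (log axis) of the 38 genes in each of the 6 islet pools, *Akita* pools above WT pools on each gene's row and grouped by class. WT1 (star) lies to the right of WT2 and WT3 in 33 of 37 tested genes (32.9% of all genes). It lies far from them in the fibrillar collagens, where the *Akita* pools fall between. AK4 is the highest *Akita* pool in 33 of 37 tested genes (37.1% of all genes).

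The 4 main classes differed in how far they varied between pools. From the lowest to the highest pool, summed CPM spanned 11.4-fold for the fibrillar collagens and 1.71-fold for pericyte and smooth muscle genes, but 1.35-fold for the basement membrane genes other than laminin and 1.37-fold for the laminins. Fibrillar collagen genes summed to 317, 188 and 229 CPM in AK4, AK5 and AK6, against 641, 56.4 and 116 CPM in WT1, WT2 and WT3. All *Akita* pools were thus above WT2 and WT3 and below WT1. Pericyte and smooth muscle genes summed to 92.9, 72.2 and 74.8 CPM in AK4, AK5 and AK6, against 91.0, 54.9 and 54.5 CPM in WT1, WT2 and WT3. Basement membrane genes summed to 594, 485 and 496 CPM in the *Akita* pools, against 519, 465 and 440 CPM in the WT pools. Laminins summed to 149, 112 and 109 CPM in the *Akita* pools, against 149, 136 and 125 CPM in the WT pools. In both of these classes the ranges overlapped. The intermediate fibroblast class summed to 355, 258 and 281 CPM in *Akita* pools, against 435, 195 and 196 CPM in WT pools, and collagen VI to 91.8, 72.6 and 78.1 CPM, against 122, 50.7 and 61.6 CPM in WT pools. In bulk RNA, fewer cells of a type and less RNA per cell cannot be told apart.

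**Figure D2:**
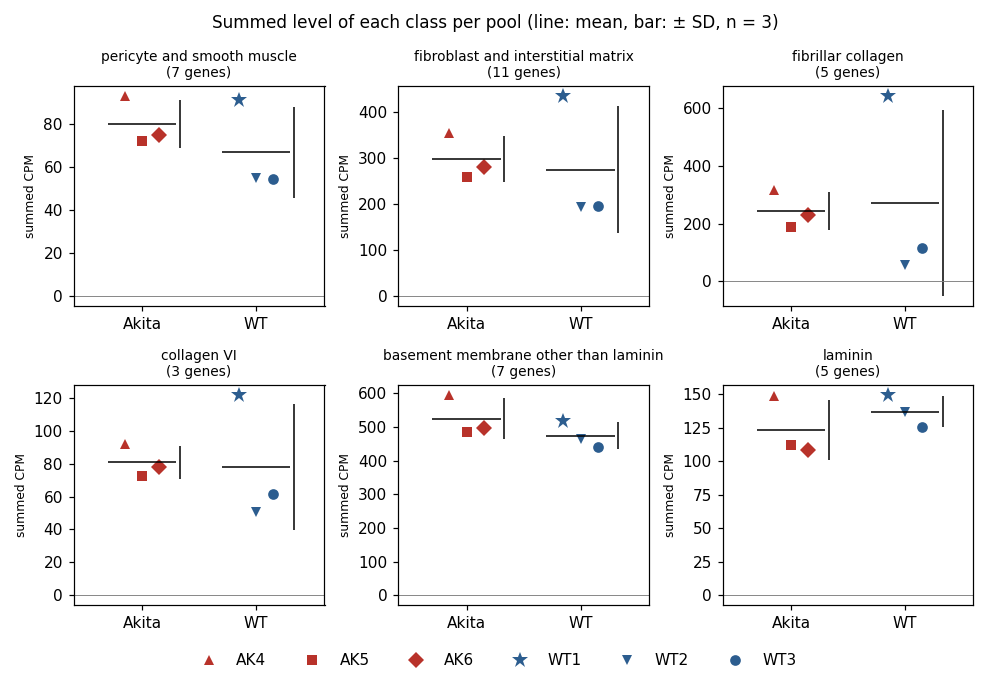
Summed CPM of each class in the 3 *Akita* and 3 WT pools, with the mean (line) and SD (bar). Fibrillar collagen sums run over 56.4 to 641 CPM within the WT group alone, while basement membrane and laminin sums stay within 1.35-fold and 1.37-fold over all 6 pools.

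The direction of the fibroblast and fibrillar collagen medians followed which WT pool was in the fit. With all 6 pools the median log2 fold change was 0.27 for pericyte and smooth muscle genes (7 of 7 above 0), 0.28 for fibroblast genes (8 of 10), 0.55 for fibrillar collagens (5 of 5), 0.68 for collagen VI (2 of 3), 0.14 for basement membrane genes (4 of 7) and −0.17 for laminins (0 of 5). For the fibrillar collagens the summed level went the other way, with a mean of 245 ± 66.1 CPM in *Akita* and 271 ± 322 CPM in WT (SD, n = 3 each), a ratio of 0.903. Without WT1 the medians were 0.53, 1.15, 1.71 and 1.29 for the pericyte, fibroblast, fibrillar collagen and collagen VI genes, and 0.16 and −0.12 for the basement membrane genes and laminins. Without WT2 the same classes gave 0.12, −0.30, −0.26 and 0.13, and 0.15 and −0.19. Fibroblast and fibrillar collagen genes therefore changed sign with a single WT pool, and the medians of the other 4 classes kept theirs with each pool left out, over 0.03 to 0.20 for the basement membrane genes and −0.35 to −0.07 for the laminins.

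Without WT1, 19 of the 37 genes were higher at an unadjusted p under 0.05 (7.81% of all genes), 0 were lower (8.13%) and 0 were called, where 0.429% of all genes were called; the lowest adjusted p was 0.0776, for *Col6a2*. With AK4 left out as well, 19 were again higher (10.9% of all genes), 3 were lower (*Nid2*, *Hspg2* and *Lama5*; 11.3% of all genes) and 0 were called (2.42% of all genes), the lowest adjusted p being 0.0507. Without AK4 alone, 0 were higher (13.3% of all genes) and 5 lower (*Nid2*, *Hspg2*, *Lama4*, *Lama5* and *Lamc1*; 11.2% of all genes). Without WT2 the lowest adjusted p was 0.448. Neither WT1 nor WT2 is marked in the labels as different from the other pools. In 23 of 37 genes (62.2%) every *Akita* pool lay above both WT2 and WT3, against 18.4% of all genes, and in 16 (43.2%) the *Akita* pools lay between those 2 pools and WT1, against 1.43% of all genes. These genes vary together, so that the shares do not count independent events. WT1 was also the highest WT pool in 33 of the 37 genes (89.2%), against 32.9% of all genes. Leaving WT1 out therefore lowered the WT level of most of these genes by its choice alone. The shares over all genes are for this reason not a like background, and no conclusion is drawn from the difference.

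**Figure D3:**
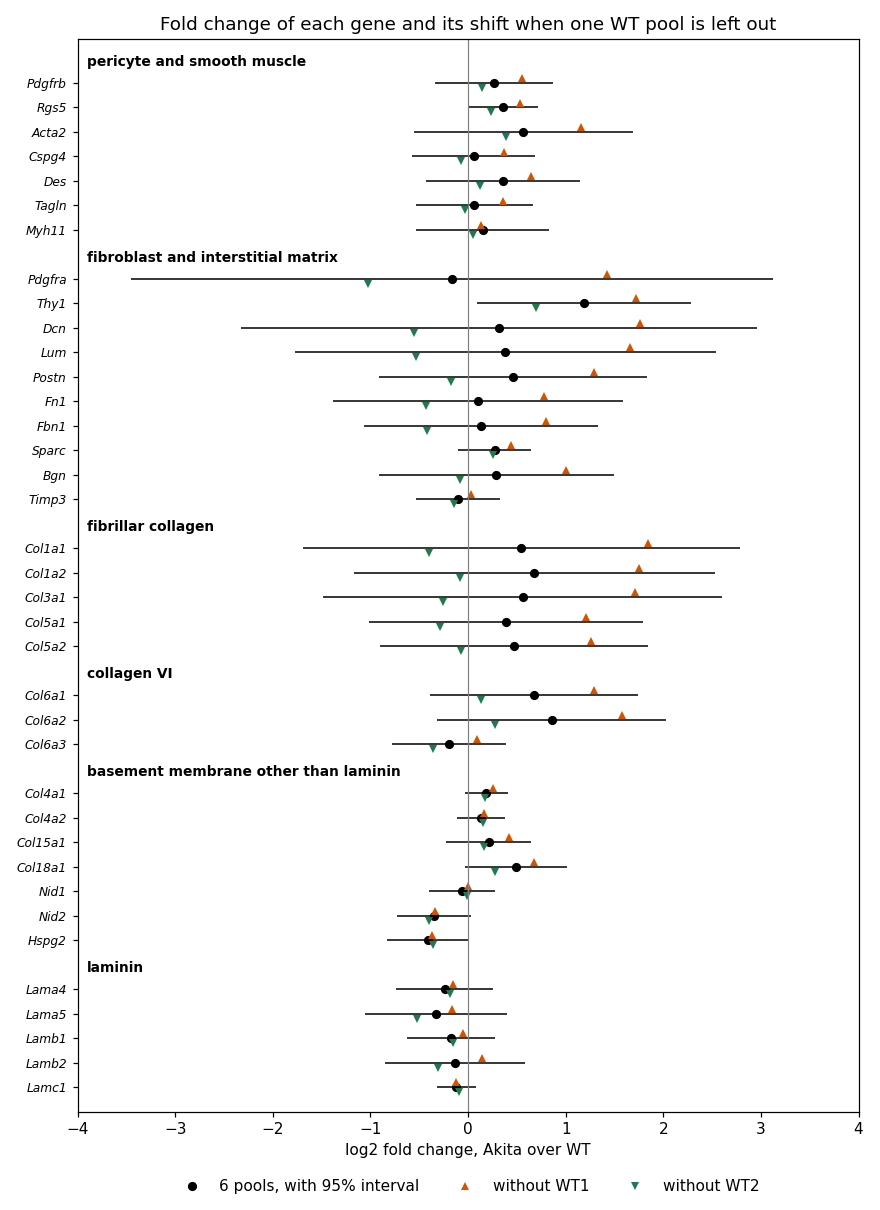
Log2 fold change of *Akita* over WT for the 37 tested genes from all 6 pools (circles, with 95% intervals), without WT1 (triangles up) and without WT2 (triangles down). For *Col1a1* the value is 1.84 without WT1 and −0.40 without WT2, whereas for *Col4a1* it is 0.25 and 0.18.

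Among pericyte genes, *Pdgfrb*, the receptor that PDGF-B from endothelial cells acts on to recruit pericytes, had 44.6, 29.7 and 31.9 CPM in AK4, AK5 and AK6, against 41.7, 24.6 and 22.9 CPM in WT1, WT2 and WT3. Each genotype had 1 high pool, and the groups overlapped, with a fold change of 0.27 ± 0.26 (SE; limma adjusted p = 0.633). *Rgs5*, a pericyte regulator of G-protein signaling, had 26.1, 25.2 and 22.7 CPM in the *Akita* pools, against 23.8, 16.2 and 18.1 CPM in the WT pools. Only AK6 lay below WT1, and the fold change was 0.36 ± 0.15 (adjusted p = 0.266). *Cspg4*, the NG2 proteoglycan of the pericyte surface, had 7.19, 5.31 and 6.13 CPM in the *Akita* pools, against 8.60, 4.95 and 4.60 CPM in the WT pools, with a fold change of 0.06 ± 0.27.

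The contractile and filament genes were weak. *Acta2*, smooth muscle actin, had 3.69, 2.93 and 5.13 CPM in the *Akita* pools, against 5.35, 1.98 and 1.40 CPM in the WT pools, a fold change of 0.57 ± 0.47 (adjusted p = 0.580). *Des*, desmin, had 4.66, 2.67 and 2.91 CPM in the *Akita* pools, against 3.70, 1.86 and 2.42 CPM in the WT pools. In both genes WT1 was the highest WT pool and the groups overlapped. *Tagln*, an actin-binding protein of smooth muscle, had 4.66 to 4.86 CPM in the *Akita* pools, against 3.39 to 6.55 CPM in the WT pools. Of its exon bases 67.9% are also covered by genes on the opposite strand, *Pcsk7* among them, and the library kit did not mark strand, so that reads of these genes cannot be told apart. *Myh11*, the smooth muscle myosin heavy chain, had 1.15 to 2.02 CPM in the *Akita* pools, against 1.24 to 1.69 CPM in the WT pools, and was the pericyte gene in which WT1 was not the highest WT pool.

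Among fibroblast genes, *Pdgfra*, the PDGF receptor of fibroblasts, differed widely between pools. It had 5.20, 0.440 and 1.03 CPM in AK4, AK5 and AK6, against 11, 0.454 and 0.532 CPM in WT1, WT2 and WT3. AK4 was 7.06-fold above the mean of the other *Akita* pools, and WT1 was 22.4-fold above that of the other WT pools. The fold change of −0.16 ± 1.39 had a 95% interval of −3.45 to 3.13; it was 1.42 without WT1 and −1.15 without AK4. *Dcn*, decorin, a small proteoglycan that binds collagen fibrils, was likewise highest in WT1 and next in AK4, with 6.14, 1.36 and 2.43 CPM in the *Akita* pools, against 13.2, 0.660 and 0.967 CPM in the WT pools. *Lum*, the related lumican, had 2.17, 1.72 and 2.03 CPM in the *Akita* pools, against 7.44, 0.413 and 0.919 CPM in the WT pools, and here AK4 did not stand out. *Dcn* had a fold change of 0.32 (95% interval −2.33 to 2.96), which was 1.76 without WT1 and −0.55 without WT2, and *Lum* one of 0.38 ± 0.91, which was 1.66 and −0.54 in the same fits.

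*Thy1*, a surface glycoprotein of fibroblasts that neurons and T cells also carry, had the lowest p of the set. Its levels were 5.42, 3.55 and 3.22 CPM in the *Akita* pools, against 3.37, 0.867 and 1.69 CPM in the WT pools. The groups met only at AK6 and WT1, and the fold change was 1.19 ± 0.46 (limma adjusted p = 0.238). Its direction held with each pool left out, between 0.69 and 1.72.

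Secreted matrix proteins of fibroblasts showed the pattern of WT1 high and WT2 low. *Postn*, periostin, had 20.0, 17.6 and 20.2 CPM in the *Akita* pools, against 38.2, 5.78 and 11.1 CPM in the WT pools. *Fn1*, fibronectin, had 51.6, 17.1 and 22.9 CPM, against 59.2, 12.1 and 21.6 CPM in the WT pools. *Bgn*, biglycan, had 42.7, 29.8 and 37.6 CPM, against 72.4, 17.5 and 18.8 CPM in the WT pools. The *Akita* pools of *Postn* and *Bgn* were closer to each other than the WT pools, and in *Fn1* AK4 was the outlying one of its group. *Fbn1*, the microfibril protein fibrillin-1, had 15.6 to 20.2 CPM in the *Akita* pools, against 7.76 to 37.7 CPM in the WT pools. Opposite-strand exons cover 20.1% of its exon bases. *Mfap4*, a microfibril-associated protein under the filter, had 9, 11 and 8 counts in the *Akita* pools, against 57, 2 and 7 counts in the WT pools.

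The remaining fibroblast-class genes were more even. *Sparc*, a collagen-binding matrix protein that endothelial cells and pericytes make as well, had 185, 160 and 156 CPM in the *Akita* pools, against 173, 135 and 112 CPM in the WT pools, with a fold change of 0.27 ± 0.16 (adjusted p = 0.412). *Timp3*, a matrix-bound inhibitor of metalloproteinases, had 16.3, 11.1 and 14.5 CPM in the *Akita* pools, against 17.3, 14.0 and 13.0 CPM in the WT pools, and exons of *Syn3* cover 21.3% of its exon bases on the opposite strand. WT1 was 1.40-fold and 1.28-fold above the other WT pools for these genes, against 16.3-fold for *Dcn*.

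The fibrillar collagens shared one order of the pools. *Col1a1*, the α1 chain of collagen I, had 69.5, 38.1 and 44.0 CPM in AK4, AK5 and AK6, against 170, 8.67 and 22.8 CPM in WT1, WT2 and WT3. *Col1a2*, its partner chain, had 64.9, 34.7 and 37.4 CPM in the *Akita* pools, against 105, 9.41 and 18.7 CPM in the WT pools. *Col3a1*, collagen III, had 107, 60.0 and 73.9 CPM in the *Akita* pools, against 234, 16.5 and 35.7 CPM in the WT pools. In all of them WT2 was lowest, WT3 next, the *Akita* pools in the middle and WT1 highest. The same order held for the collagen V chains that set fibril diameter. *Col5a1* had 20.8, 18.3 and 19.9 CPM in the *Akita* pools, against 40.5, 5.82 and 13.0 CPM in the WT pools, and *Col5a2* had 55.1, 37.0 and 53.9 CPM, against 92.9, 16.0 and 25.6 CPM in the WT pools. Fold changes lay between 0.39 and 0.68 with standard errors of 0.58 to 0.95, and *Col1a1* had 0.55 ± 0.95 (95% interval −1.69 to 2.78; limma adjusted p = 0.807). Without WT1 *Col1a1* had a fold change of 1.84, and without WT2 one of −0.40.

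Collagen VI, a beaded microfilament collagen, was split. *Col6a1* had 21.0, 17.7 and 16.6 CPM in the *Akita* pools, against 24.1, 5.45 and 10.7 CPM in the WT pools (fold change 0.68 ± 0.45). *Col6a2*, whose gene neighbors *Col6a1*, had 19.0, 18.1 and 15.2 CPM in the *Akita* pools, against 23.0, 4.38 and 7.98 CPM in the WT pools (0.86 ± 0.50, adjusted p = 0.409). Both had every *Akita* pool between WT1 and the other WT pools. *Col6a3*, the chain with the longest protein, had 51.8, 36.9 and 46.4 CPM in the *Akita* pools, against 74.4, 40.8 and 42.9 CPM in the WT pools, and its fold change was −0.20 ± 0.25. The count ratio of *Col6a3* to *Col6a2* was 2.04 to 3.06 in *Akita* pools and 3.24 to 9.33 in WT pools, the highest in WT2.

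In the basement membrane, the collagen IV chains varied little between pools. *Col4a1* and *Col4a2* encode the α1 and α2 chains that assemble together, and their genes stand head to head on chromosome 8. The stretch where both begin, chr8:11312801-11312830 in RefSeq on GRCm38.p6, plus strand, is shown for this pair. The counts of the pair kept an almost fixed ratio, and whether the shared start bears on that was not tested. Capitals mark the 22 bases that belong to the first exon of both genes, from the start of *Col4a2* at 11312805 to that of *Col4a1* at 11312826, with 4 flanking bases on each side in lower case.
Col4a1-Col4a2: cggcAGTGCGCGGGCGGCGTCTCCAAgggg
*Col4a1* had 270, 231 and 236 CPM in the *Akita* pools, against 235, 212 and 201 CPM in the WT pools (0.19 ± 0.09, adjusted p = 0.337). *Col4a2* had 153, 124 and 121 CPM in the *Akita* pools, against 124, 123 and 114 CPM in the WT pools (0.14 ± 0.10, adjusted p = 0.534). Only AK5 lay below WT1 for *Col4a1*, by 231 to 235 CPM. The count ratio of *Col4a1* to *Col4a2* was 1.77 to 1.95 in *Akita* pools and 1.73 to 1.89 in WT pools, a span of 1.13-fold.

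*Col18a1*, the source of endostatin, had 64.9, 44.2 and 59.5 CPM in the *Akita* pools, against 50.1, 29.4 and 41.6 CPM in the WT pools, with a fold change of 0.49 ± 0.22 (95% interval −0.03 to 1.01; adjusted p = 0.298). *Col15a1*, the related collagen of vessel basement membranes, had 30.1, 26.5 and 24.4 CPM in the *Akita* pools, against 30.4, 21.8 and 18.3 CPM in the WT pools. Both overlapped between genotypes. *Nid1* and *Nid2* encode the nidogens that link laminin to collagen IV. *Nid1* had 32.9, 25.2 and 27.4 CPM in the *Akita* pools, against 32.1, 31.7 and 24.9 CPM in the WT pools. *Nid2* had 7.73, 6.63 and 5.49 CPM in the *Akita* pools, against 8.53, 7.88 and 8.85 CPM in the WT pools, and was the only gene of the 37 without overlap (−0.35 ± 0.16, adjusted p = 0.303); 8.45% of its exon bases lie opposite exons of *Rtraf*. *Hspg2*, the heparan sulfate proteoglycan perlecan, had 35.2, 26.7 and 22 CPM in the *Akita* pools, against 38.4, 39.5 and 32.1 CPM in the WT pools (−0.41 ± 0.18, adjusted p = 0.273). AK4 alone overlapped the WT pools, and without AK4 the fold change was −0.59 (adjusted p = 0.0615).

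All 5 laminin genes had fold changes below 0, between −0.33 and −0.12, and none was called. *Lamc1*, the γ1 chain shared by most laminins, had 69.4, 61.7 and 58.9 CPM in the *Akita* pools, against 68.8, 71.1 and 66.2 CPM in the WT pools (−0.12 ± 0.08, adjusted p = 0.494). *Lamb1*, the β1 chain, had 40.5, 28.7 and 27.1 CPM in the *Akita* pools, against 41.7, 36.5 and 29.1 CPM in the WT pools. *Lama4*, an α chain of endothelial basement membranes, had 15.1, 9.74 and 9.79 CPM in the *Akita* pools, against 14.8, 14.3 and 11 CPM in the WT pools. AK4 was the highest *Akita* pool in each of the laminins and lay within the WT range or above it, so that AK5 and AK6 carried the negative values. *Lama5* had 18.5, 8.72 and 9.87 CPM in the *Akita* pools, against 17.9, 11.3 and 15.6 CPM in the WT pools, and without AK4 its fold change was −0.66 (adjusted p = 0.157). *Lamb2*, the β2 chain, had 2.98 to 4.95 CPM in the *Akita* pools, against 3.22 to 5.76 CPM in the WT pools.

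Per kilobase of exon (RPKM, with exon lengths of GENCODE on GRCm38), *Sparc* was the strongest gene of the set, with 44.1 ± 4.19 in *Akita* and 37.0 ± 8.12 in WT (SD, n = 3 each). *Col4a1* came next with 33 ± 2.84 RPKM in *Akita* and 28.9 ± 2.36 in WT, and *Col4a2* had 20.0 ± 2.64 and 18.1 ± 0.870 RPKM. In WT the SDs of *Sparc* and *Col4a1* overlapped, but both genes were read in the same pools. The count ratio of *Sparc* to *Col4a1* was 0.559 to 0.736, above the ratio of their exon lengths (3788 to 7464 bases) in every pool. *Sparc* was thus the stronger gene per kilobase within each pool. *Col3a1* (8.19 ± 2.47 RPKM in *Akita*, 9.71 ± 12.2 in WT), *Col1a1* (7.70 ± 2.54 and 10.2 ± 13.6), *Col18a1* (8.0 ± 1.53 and 5.75 ± 1.48) and *Lamc1* (7.66 ± 0.660 and 8.31 ± 0.297) followed at levels that overlapped. *Pdgfrb* had 6.47 ± 1.46 RPKM in *Akita* and 5.43 ± 1.89 in WT, and *Pdgfra* 0.222 ± 0.259 and 0.40 ± 0.607 RPKM.

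Ratios of counts within a pool, which need no scaling between libraries, are given for pairs of these genes. The ratio of *Col3a1* to *Col1a1* lay between 1.54 and 1.68 in *Akita* pools and between 1.38 and 1.90 in WT pools, and that of *Rgs5* to *Pdgfrb* between 0.585 and 0.846 in *Akita* pools and between 0.570 and 0.791 in WT pools. Ratios across classes were narrow for some pairs, with a span of 1.32-fold for *Sparc* to *Col4a1* and 1.34-fold for *Col4a1* to *Lamc1*. The ratio of *Col4a1* to *Lamc1* was 3.75 to 4.01 in *Akita* pools and 2.98 to 3.42 in WT pools, without overlap, and was not tested. Within a class *Acta2* to *Pdgfrb* spanned 2.62-fold and *Col6a3* to *Col6a2* 4.58-fold. Of the pairs of members computed, the 3 widest spans joined fibroblast or interstitial collagen genes to others. *Col1a1* to *Col4a1* was 0.257, 0.165 and 0.186 in AK4, AK5 and AK6, against 0.722, 0.0409 and 0.114 in WT1, WT2 and WT3, a span of 17.7-fold. *Pdgfra* to *Pdgfrb* was 0.117, 0.0148 and 0.0324 in the *Akita* pools, against 0.265, 0.0184 and 0.0233 in the WT pools, a span of 17.9-fold. *Dcn* to *Pdgfrb* spanned 11.9-fold, with WT1 again the highest.

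**Figure D4:**
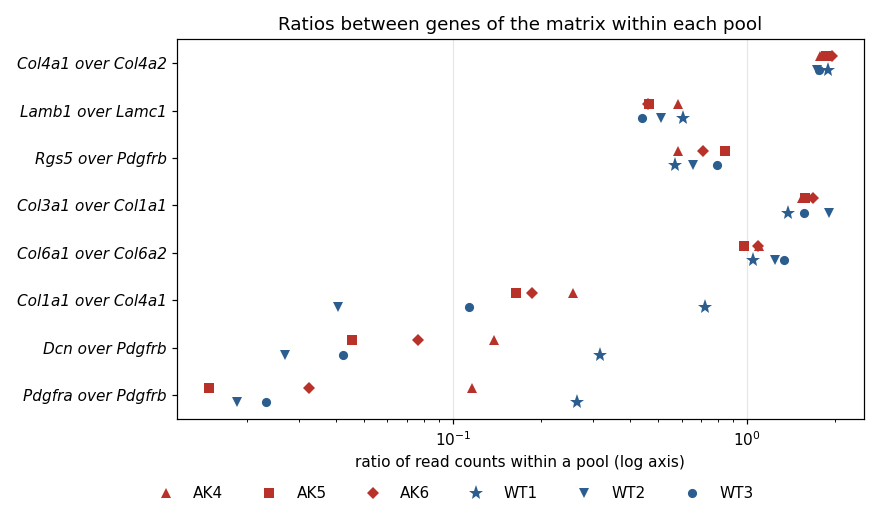
Ratio of raw counts of gene pairs within each pool (log axis), *Akita* pools above WT pools on each row. *Col4a1* over *Col4a2* spans 1.13-fold, whereas *Col1a1* over *Col4a1* and *Pdgfra* over *Pdgfrb* span 17.7-fold and 17.9-fold, with WT1 the highest.

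Markers of other cells moved between pools as well. Beyond fits with an acinar or endothelial score as a covariate, given below, their part in these results was not tested. Endothelial markers (16 genes, led by *Kdr*, *Eng* and *Flt1*) summed to 362, 272 and 238 CPM in AK4, AK5 and AK6, against 304, 365 and 249 CPM in WT1, WT2 and WT3. Acinar markers summed to 8905, 264 and 1585 CPM in the *Akita* pools, against 6991, 319 and 8502 CPM in the WT pools. AK4, WT3 and WT1 were the pools with the most acinar RNA, and AK5 and WT2 those with the least. Macrophage markers summed to 249, 105 and 150 CPM in the *Akita* pools, against 328, 198 and 186 CPM in the WT pools, ductal markers to 1416, 1210 and 1263 CPM, against 2215, 1343 and 1667 CPM in the WT pools, and Schwann cell markers to 44.5, 29.4 and 28.8 CPM, against 35.2, 29.6 and 36.5 CPM in the WT pools. WT1 was the highest pool of the 6 for the macrophage and ductal sums, as for the fibrillar collagens, but single markers differed. *Lyz2* had 109 CPM in WT1, against 20.8 and 14.9 CPM in WT2 and WT3, whereas *C1qa* had 68.4 CPM, against 107 and 95.8 CPM. Of the ductal markers, *Spp1* had 788 CPM in WT1, against 143 and 281 CPM in WT2 and WT3, whereas *Cftr* had 41.1 CPM, against 68.5 and 42.2 CPM. The macrophage and ductal sums therefore do not rank the pools by content of these cells. Mesothelial markers summed to 58.5, 79.0 and 89.5 CPM in the *Akita* pools, against 27, 52.3 and 81.6 CPM in the WT pools, with WT1 the lowest. That sum was nearly all *Msln* (26.4, 52.2 and 81.6 CPM in the WT pools), the only gene of the list tested. The gene *Wt1* went the other way, with 16 counts in pool WT1, 6 in AK4 and 0 in every other pool. The sum therefore does not rank the pools by mesothelial content. Red blood cell markers summed to 9.72, 22.3 and 24.6 CPM in the *Akita* pools, against 8.12, 5.08 and 7.93 CPM in the WT pools, without overlap. Alpha-cell markers summed to 38827, 60668 and 56205 CPM in the *Akita* pools, against 26886, 38128 and 41925 CPM in the WT pools, with WT1 the lowest. Beta-cell markers summed to 131587, 152646 and 156393 CPM in the *Akita* pools, against 221762, 226226 and 245442 CPM in the WT pools, without overlap, and delta-cell markers to 4865, 3736 and 4230 CPM, against 3899, 3473 and 3818 CPM in the WT pools. The beta-cell sum was nearly all *Ins1*, *Iapp* and the mutated gene *Ins2*, so that it does not measure beta-cell content. Of its 9 genes 8 were lower without overlap (12.2% of all genes), and *Pdx1* overlapped, with 160, 150 and 116 CPM in the *Akita* pools, against 151, 158 and 164 CPM in the WT pools. By cell counts the paper found the β/α ratio similar in both genotypes at this age.

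Other genes of the same pathways were read from lists by role. Of the integrin and other matrix receptor genes, 24 were tested, 1 was called higher (0.759% of all genes) and 1 lower (0.857% of all genes). *Itgav*, the αv integrin subunit that binds fibronectin and vitronectin, had 101, 89.2 and 98.4 CPM in the *Akita* pools, against 189, 181 and 168 CPM in the WT pools. It fell in *Akita* by 0.90 ± 0.08 on the log2 scale (limma adjusted p = 0.0121), with all 3 *Akita* pools below all 3 WT pools, and its adjusted p ran from 0.0159 to 0.0680 with each pool left out; the call was lost without WT2 (0.0560), WT3 (0.0680) or AK6 (0.0667). *Sdc4*, the heparan sulfate proteoglycan syndecan-4, had 74.8, 81.7 and 72.8 CPM in the *Akita* pools, against 48.1, 41.2 and 51.8 CPM in the WT pools, and rose by 0.71 ± 0.10 (adjusted p = 0.0315). That call held without AK4 (0.0327) and was lost without any one of WT1, WT2, WT3, AK5 and AK6 (0.0776 to 0.105). *Cd44*, the hyaluronan receptor, had 231, 304 and 220 CPM in the *Akita* pools, against 175, 66.8 and 92.3 CPM in the WT pools (1.28 ± 0.33, adjusted p = 0.110). Endocrine and other islet cells also carry these receptors, so that the cell type behind the values is not given by whole islets.

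Among 13 other basement membrane genes 1 was called higher (0.759% of all genes) and 0 lower (0.857% of all genes). *Smoc1*, a calcium-binding protein of basement membranes, had 11.5, 12.6 and 12.7 CPM in the *Akita* pools, against 6.66, 3.55 and 5.66 CPM in the WT pools, and rose by 1.25 ± 0.22 (limma adjusted p = 0.0468). This call too held without AK4 (0.0423) and was lost without any one of the other 5 pools (0.0664 to 0.157). It was also lost when library sizes were taken without insulin and acinar genes (0.0506) and with an acinar (0.0502) or endothelial (0.0619) score as a covariate. *Lama3*, an α chain of epithelial laminins, had 4.34, 1.61 and 2.27 CPM in the *Akita* pools, against 13.2, 7.43 and 15.1 CPM in the WT pools. Its fold change of −2.16 ± 0.44 missed the threshold (adjusted p = 0.0673), and *Ntn4*, a netrin that binds laminin, had 0.60 ± 0.14 (adjusted p = 0.0858).

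No gene was called among 11 other pericyte and smooth muscle genes, 28 other fibroblast and stellate genes and 25 collagen processing genes. None was called among 22 matrix degradation genes and 4 PDGF ligands either. Over all genes 1.62% were called, and at that share the lack of calls does not set such short lists apart. The median fold changes of these lists, in the order given, were −0.01, −0.19, −0.01, −0.26 and −0.31. In the collagen processing list *P3h4*, part of a collagen-modifying complex of the endoplasmic reticulum, had 47.8, 55.2 and 49.4 CPM in the *Akita* pools, against 38.1, 32.5 and 36.1 CPM in the WT pools (0.51 ± 0.10, adjusted p = 0.0581). *Mia3*, which loads procollagen into transport vesicles, had 0.27 ± 0.06 (adjusted p = 0.0831), and *Bmp1*, the procollagen C-proteinase, −0.56 ± 0.14 (adjusted p = 0.0972). In all of these the groups did not overlap, but they were named for their low p. Of the 25 genes, 6 were higher without overlap (13.2% of all genes) and 1 was lower (12.2% of all genes). The other fibroblast list, like the fibrillar collagens, was highest in WT1, with 392, 284 and 316 CPM in the *Akita* pools, against 622, 313 and 280 CPM in the WT pools.

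Promoter sequences (250 bases before to 50 after each start, RefSeq) matched 25 of the 38 genes, in 28 promoters. The CArG box, the serum response factor motif of smooth muscle genes, was found in 0 of these promoters and in 1.63% of 32851 promoters over all genes, both strands searched. The median GC content of the 250 bases before the start was 59.8% in the 28 promoters and 52.4% over all promoters. No match says only that these letters are not in this window. Only 4 of the promoters belonged to pericyte and smooth muscle genes (*Acta2*, *Cspg4*, *Des* and *Rgs5*), and *Tagln*, *Myh11* and *Pdgfrb* had none in the set. The exact box was searched, without mismatches. At a share of 1.63% over all promoters, 0 of 28 does not show that the box is rarer in these genes.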

How the data were processed

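RNA of 3 *Akita* and 3 WT pools was sequenced as single reads from poly(A)-selected libraries that did not mark strand. Per the labels and methods, the authors trimmed with cutadapt 1.12, aligned to GRCm38 with STAR 2.5.2b and counted with HTSeq 0.7.2; for the annotation release and strand setting, nothing is stated in the sources used. The authors deposited raw counts per gene, which are the values used here; their normalized counts and their DESeq2 1.12.4 columns of fold changes and p-values were not used. Of 47729 genes, 6815 had a mark in place of counts, so that limma-voom was used. The *Akita* columns AK4 to AK6 could be matched to the genotype only.

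Genes needed the CPM of 10 counts in the median library in at least 3 libraries and 15 counts in all. TMM factors were 0.937 to 1.09, and limma 3.58.1 (R 4.3.3) was run with a pseudocount of 0.5, without covariates, after tests on simulated data. The depth of 22069554 to 27043169 counts limits the precision of weak genes. Python 3.11.15 was used for the rest. The 38 genes and the lists were chosen with earlier results of these data known; of each pathway list, up to 3 genes with the lowest p were eligible to be named. Alternatives were other scaling factors, filters, covariates, tests, a threshold of 0.1 and each library left out. Leaving out WT1 and AK4 together was chosen after seeing the data.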

Additional observations from a re-analysis of the deposited data

How the results depend on the processing

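None of the 37 tested genes was called by limma-voom or limma-trend under any of 17 alternatives; of 629 refitted fold changes 591 kept their direction and 38 did not. The count of all genes called was 249 with TMM factors, 569 with library totals alone (450 higher and 119 lower, against 117 and 132), 521 with sample weights (272 and 249), 744 at an adjusted p under 0.1, and 0 to 640 with 1 pool left out (0 without AK6, 1 without WT3, 7 without WT2, 52 without AK5, 65 without WT1, 640 without AK4). Library totals alone shifted the median over all genes to 0.12 on the log2 scale; *Timp3* at 0.016 and *Nid1* at 0.056, now above 0, lay below that median. *Myh11* turned to −0.038 with sample weights and −0.060 without WT1 and AK4. *Pdgfra* turned to 0.50 with the acinar score and 0.17 with the endothelial score as a covariate, and to 0.42 without WT1 and AK4.

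With 1 pool left out, the median of the fibroblast genes ran from −0.30 (without WT2) to 1.15 (without WT1) and that of the fibrillar collagens from −0.26 to 1.71. Fold changes that crossed 0 ran from −0.10 to 0.36 for *Cspg4*, −0.12 to 0.36 for *Tagln*, −0.028 to 0.36 for *Myh11*, −1.15 to 1.42 for *Pdgfra*, −0.55 to 1.76 for *Dcn*, −0.54 to 1.66 for *Lum*, −0.18 to 1.29 for *Postn*, −0.43 to 0.78 for *Fn1*, −0.43 to 0.80 for *Fbn1*, −0.086 to 1.0 for *Bgn*, −0.23 to 0.066 for *Timp3*, −0.40 to 1.84 for *Col1a1*, −0.078 to 1.76 for *Col1a2*, −0.26 to 1.71 for *Col3a1*, −0.29 to 1.21 for *Col5a1*, −0.075 to 1.26 for *Col5a2*, −0.36 to 0.091 for *Col6a3*, −0.17 to 0.032 for *Nid1*, −0.35 to 0.15 for *Lamb2* and −0.89 to 0.11 for *Pdgfc*. The cause was not tested.

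No paired analysis was possible because the *Akita* columns carry none of the replicate numbers in the labels. The count tests of edgeR and DESeq2 were planned as an alternative and were not run, since marks in place of numbers kept the columns from being taken as counts.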
